A study of Mus musculus with 6 samples.

Results

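Drd1, Drd2, Adora2a, Ppp1r1b, Rarb and Ido1 are enriched in the projection neurons of the striatum, and their levels were followed here in ribosome-bound RNA from cortex. The members were all probe sets that the array annotation pairs with 1 of these 6 symbols and with no other gene. That rule gave 6 probe sets for 5 genes (5 of 18193 genes named by 1 symbol, and 6 of 45101 probe sets in all), with 2 for Drd1 and 1 each for Drd2, Ppp1r1b, Rarb and Ido1. Adora2a, an adenosine receptor gene, was not analysed here, since no probe set in the annotation used has that single symbol. The mice carried a bacterial artificial chromosome (line ES691) that uses the S100a10 gene to drive a tagged ribosomal protein, and all of them lacked p11, the protein made from S100a10, throughout life. They had been backcrossed from FVB onto C57BL/6 for 3 to 5 generations, and neither their ages nor the number of animals behind an array were known here. The fluoxetine group (FLX, 3 arrays) drank fluoxetine at 0.167 mg per ml in 1% saccharine, and the vehicle group (VEH, 3 arrays) drank 1% saccharine alone, both for 15 to 18 days. Fluoxetine is a selective serotonin reuptake inhibitor. Per the series' design text this transgene marks some cells other than neurons too, so the purified RNA is not from pyramidal neurons alone.

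In the striatum, dopamine acts on projection neurons of 2 main classes. Those of the direct pathway carry the D1 receptor (Drd1), which raises cyclic AMP, and those of the indirect pathway carry the D2 receptor (Drd2), which lowers it, together with Adora2a. Both classes hold DARPP-32 (Ppp1r1b), a protein that inhibits protein phosphatase 1 once protein kinase A has phosphorylated it. Rarb encodes a nuclear receptor for retinoic acid, and Ido1 encodes an enzyme that opens the indole ring of tryptophan at the start of the kynurenine pathway and is induced by interferon. In the cortex, D1 receptors and DARPP-32 are also made by deep-layer neurons, so these genes are not markers of striatum alone.

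Values are normalized intensities on a linear scale, and 50 was the minimum used for testing a probe set, as the submitters advise. Medians over all probe sets were 38.6 to 42.0 per array. In both groups the array numbered 3 stood apart from the rest. Over the probe sets tested, log2 values correlated at 0.987 to 0.995 among arrays numbered 1 or 2, at 0.867 to 0.916 between an array numbered 3 and one numbered 1 or 2, and at 0.973 between both arrays numbered 3. Results of the members are therefore given by replicate number, and those of tested members also without both replicate 3 arrays.

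Of the dopamine receptors, Drd1 was measured above the minimum on all 6 arrays and Drd2 on 0 of 6. Drd1 lies on chromosome 13 (GRCm38.p6, 54051183 to 54055658). Its brighter probe set (set A) gave 197.5, 161.5 and 214.5 on FLX arrays 1, 2 and 3, and 131.9, 171.0 and 177.5 on VEH arrays 1, 2 and 3. The lowest array was VEH replicate 1 and the highest FLX replicate 3, and the groups overlapped, since FLX replicate 2 lay below VEH replicates 2 and 3. The other probe set (set B) gave 170.3, 168.3 and 189.8 in FLX and 126.8, 168.3 and 177.4 in VEH. Both probe sets put VEH replicate 1 lowest and FLX replicate 3 highest, and they differed by at most 0.21 on the log2 scale on any array, in FLX replicate 1. Set A averaged 191 ± 27.1 in FLX and 160.1 ± 24.7 in VEH (SD, n = 3 arrays each), a fitted ratio of 1.20 with a 95% interval of 0.819 to 1.74. Set B had a ratio of 1.13, with an interval of 0.788 to 1.62. The log2 difference without both replicate 3 arrays was 0.25 (SE 0.19) for set A and 0.21 (SE 0.18) for set B. By replicate number, FLX minus VEH was 0.58, -0.08 and 0.27 for set A and 0.42, 0.00 and 0.10 for set B (log2). Drd1 thus gave positive values in pairs 1 and 3 and a value at or just below 0 in pair 2, with neither probe set past limma's threshold (adjusted p = 0.9998 for both).

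Drd2 (chromosome 9, 49340360 to 49408177) gave 27.1, 27.9 and 37.5 on FLX arrays 1, 2 and 3, and 27.1, 35.1 and 33.6 on VEH arrays 1, 2 and 3. All 6 values lay under 50 and below the median of their array, so Drd2 was not tested and its ratio is not a measured change. With no minimum, limma's log2 difference was -0.06 (SE 0.19, adjusted p = 1.0). The other dopamine receptor genes with a named probe set were also under 50 on every array, with Drd3 at 4.20 to 4.84 and Drd4 at 10.8 to 20.0. Drd5 had no named probe set. Among the 4 dopamine receptor genes with a named probe set, Drd1 was thus the 1 above the minimum. In whole immunoprecipitates, a low value from few cells and one from little RNA per cell cannot be told apart.

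Ppp1r1b (chromosome 11, 98348406 to 98357796) differed more between replicate numbers than between treatments. FLX arrays 1, 2 and 3 gave 705.9, 753.0 and 1419, and VEH arrays 1, 2 and 3 gave 636.8, 752.9 and 1564. The replicate 3 arrays were the 2 highest in the set, and the other 4 arrays lay between 636.8 and 753.0. The means were 959.4 ± 398.9 in FLX and 984.5 ± 505.0 in VEH (SD, n = 3 each). The fitted ratio was 1.00, with a 95% interval of 0.471 to 2.13 (limma adjusted p = 0.9998). Replicate 3 enters the spread of both groups in this interval. Equal-numbered arrays differed by 0.15, 0.00 and -0.14 (log2). With the replicate number as a block the 95% interval of the log2 difference narrowed to -0.37 to 0.38, around the same estimate. The log2 difference without both replicate 3 arrays was 0.07 (SE 0.15).

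**Figure D1:**
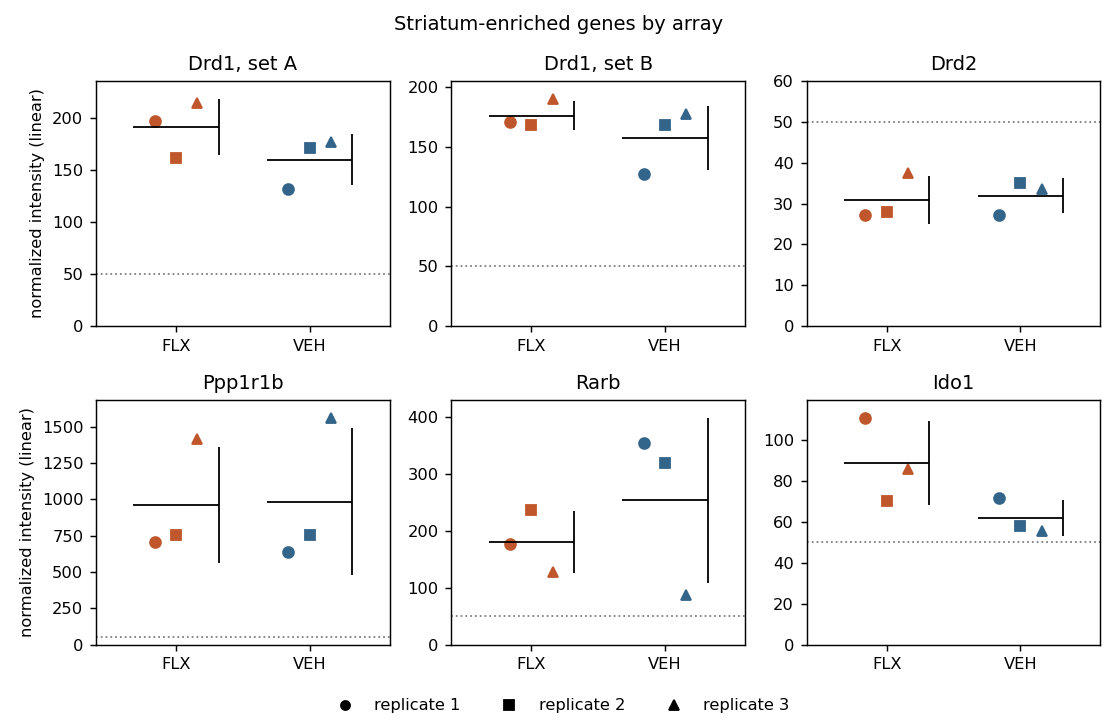
Normalized intensity (linear axis from 0) of the 6 probe sets on each array, by group, with circles, squares and triangles for replicates 1, 2 and 3. Horizontal lines are group means, vertical lines 1 SD either side (n = 3) and dotted lines the minimum of 50; Drd2 lies under the minimum on all arrays, and the triangles of Ppp1r1b (1419 and 1564) lie above all other points of that gene.

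Rarb (chromosome 14, 16430839 to 17082331) gave 175.9, 235.5 and 127.7 on FLX arrays 1, 2 and 3, and 353.5, 318.8 and 86.5 on VEH arrays 1, 2 and 3. VEH replicates 1 and 2 were the highest arrays and VEH replicate 3 the lowest, so the VEH values enclosed all FLX values. The means were 179.7 ± 54.0 in FLX and 252.9 ± 145.2 in VEH (SD, n = 3 each), with a fitted ratio of 0.816 and a 95% interval of 0.300 to 2.22 (limma adjusted p = 0.9998). FLX minus VEH was -1.01 in pair 1, -0.44 in pair 2 and 0.56 in pair 3 (log2). Without both replicate 3 arrays the log2 difference was -0.72 (SE 0.19), with an unadjusted p of 0.0101 and an adjusted p of 0.789 by limma. In that fit 6.09% of 21994 probe sets had an unadjusted p under 0.05.

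The 1 Rarb start searched lies inside the gene span given above, not at its outer end. It carries the classic retinoic acid response element through which the receptor regulates its own gene. The sequence is shown because the retinoic acid genes of these arrays are described beside Rarb. The element was searched as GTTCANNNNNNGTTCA and, on the other strand, TGAACNNNNNNTGAAC, in windows of 250 bases before to 50 after each gene start (RefSeq, GRCm38.p6). It was found in 25 of 32851 windows (0.0761%). Among the 26 genes of the members and the retinoic acid list, 18 had a window and 2 held the element. They were Rarb (chr14:16575477-16575568, minus strand) and Cyp26a1 (chr19:37697736-37697807, plus strand), the gene of a retinoic acid-degrading enzyme. Capitals mark the element, which spans bases 52 to 37 before the searched start of Rarb. In Cyp26a1 it spans bases 32 to 17 before the start, on the other strand.
Rarb: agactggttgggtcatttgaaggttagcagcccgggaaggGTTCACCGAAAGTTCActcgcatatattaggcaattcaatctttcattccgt
Cyp26a1: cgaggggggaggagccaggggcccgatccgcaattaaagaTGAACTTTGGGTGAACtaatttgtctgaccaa
Cyp26a1 lay between 23.6 and 26.1 on all 6 arrays, under the minimum, so Rarb was the 1 gene of this pair with a measured level.

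Ido1 (chromosome 8, 24584133 to 24596952) had the smallest unadjusted p of the members in the fit over all 6 arrays, whereas without both replicate 3 arrays Rarb had it (0.0101, against 0.1304 for Ido1, both by limma). Ido1 gave 110.9, 70.34 and 85.58 on FLX arrays 1, 2 and 3, and 71.75, 57.75 and 55.54 on VEH arrays 1, 2 and 3. FLX was higher in 3 of 3 pairs of equal number, by 0.63, 0.28 and 0.62 (log2), which also held for 19.6% of the 22200 probe sets tested. The groups overlapped by a narrow margin, since FLX replicate 2 lay just below VEH replicate 1. The means were 88.9 ± 20.5 and 61.7 ± 8.79 (SD, n = 3 each), and the fitted ratio was 1.43 with a 95% interval of 0.940 to 2.16. The limma test gave an unadjusted p of 0.0823 and an adjusted p of 0.9998. With the replicate block the 95% interval of the log2 difference was 0.12 to 0.90, with an unadjusted p of 0.0162 and an adjusted p of 0.623 by limma. In that fit 7.95% of the 22200 probe sets had an unadjusted p under 0.05. Without both replicate 3 arrays the log2 difference was 0.46 (SE 0.26).

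Of the 5 member probe sets tested, 0 passed limma's threshold between FLX and VEH, as did 0.0% of the 22200 tested, of which 83 (0.374%) had an unadjusted p under 0.05. The 4 genes tested had a median log2 difference of 0.13, with 3 positive (Drd1, Ppp1r1b and Ido1) and Rarb negative, where 12694 of all 22200 probe sets tested were positive with a median of 0.04. With 1 array left out the median of the 4 genes ran from 0.05 (without FLX replicate 3) to 0.37 (without VEH replicate 3), and with no minimum, which adds Drd2, it was 0.003. It was 0.21 without FLX replicate 1 and 0.26 without FLX replicate 2. The positive value of Ppp1r1b, 0.003, turned to -0.02 when each array was centred on its median. Drd2 was not in these counts. The fit with the replicate block also called 0 probe sets, with 1764 at an unadjusted p under 0.05.

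**Figure D2:**
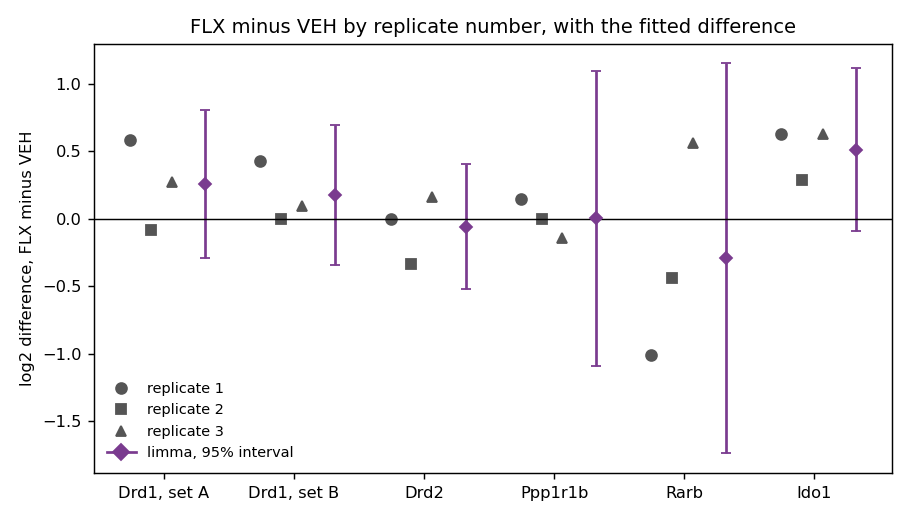
FLX minus VEH on the log2 axis for each probe set, as the difference between arrays of equal replicate number (grey circle, square and triangle) and as limma's fitted difference with its 95% interval (purple diamond; for Drd2 from the fit with no minimum). All 3 points of Ido1 lie above 0, the points of Rarb run from -1.01 to 0.56, and the 6 intervals all include 0.

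The other striatal projection neuron genes were listed with the members to show how far that class of transcript is present. Of 36 genes listed, 33 had a named probe set, 29 were tested and 4 were under 50 on all arrays. Pdyn, the prodynorphin gene of direct pathway neurons, was among those 4 at 20.5 to 41.0, as was Chrm4, the M4 muscarinic receptor. Penk, the proenkephalin gene of indirect pathway neurons, lay between 673.5 and 3395, and Tac1, the substance P precursor of direct pathway neurons, between 1097 and 1944. Penk is also made in other cortical cells and Tac1 in cortical interneurons. Rgs9, whose product speeds the shut-off of G proteins in striatal neurons, lay between 146.1 and 561.6, and Pde10a, a phosphodiesterase of both striatal classes, between 1886 and 5624. Of the 4 cholinergic neuron genes with a named probe set, 3 were at the bottom of the scale, with Chat at 4.43 to 5.52, Slc5a7 at 4.53 to 5.14 and Slc18a3 at 5.93 to 6.21. The 4th, Lhx8, a LIM homeobox gene of developing cholinergic neurons, was above 50 on all 6 arrays, at 289.8 to 1459.8. Of 10 midbrain dopamine neuron genes 5 were under 50 on all arrays, among them the dopamine transporter gene Slc6a3 at 31.1 to 36.8. Of the enzymes of dopamine synthesis, Th lay between 46.4 and 61.9, while Ddc was above 50 on all 6 arrays, at 89.77 to 665.1 with FLX replicate 3 highest. The brightest of this list were Aldh1a1, at 2778.6 to 11952, and Nr4a2, at 1736.8 to 12374.5, which also belong to other lists. Lmx1b lay between 6.65 and 103.4.

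Between treatments 20 of these 29 genes were higher and 9 lower in FLX, 0 passed limma's threshold (0.0% of all probe sets tested), and the median log2 difference was 0.18. The summed intensity of the 29 genes ran from 45764 to 59928 in FLX and from 42946 to 60562 in VEH, so the groups overlapped. Penk had a log2 difference of 0.59 (SE 0.64), with 0.65, 0.16 and 0.94 in the 3 pairs, and Tac1 had 0.20 (SE 0.28). Bcl11b, a transcription factor of striatal and subcerebral projection neurons, had 0.34 (SE 0.62), Foxp1 -0.58 (SE 0.52) and Foxp2 -0.12 (SE 0.34), the last 2 being forkhead factors of striatal and deep cortical neurons. The members of this list with the smallest unadjusted p were Rasgrp2, a Rap guanine nucleotide exchange factor, at -0.84 (SE 0.39), and Ecel1 at 0.57 (SE 0.39). Rasgrp2 gave 306.8, 270.1 and 127.2 in FLX and 486.9, 381.2 and 326.4 in VEH, without overlap, as did 1.79% of all probe sets tested in that direction. Penk, Gpr6, Gnal, Arpp21, Syndig1l and Ecel1 were higher in all 3 pairs and Gng7, Rasgrp2 and Zfp503 lower in all 3, where all tested probe sets gave 19.6% and 13.6%. The median of these genes turned to -0.11 when FLX replicate 3 was left out, and was 0.07 without VEH replicate 1 and 0.08 without VEH replicate 2.

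The signalling partners of the dopamine receptors and of DARPP-32 include G protein subunits, adenylyl cyclases, protein kinase A, protein phosphatases and phosphodiesterases. Of 42 genes listed 38 were tested, and Gnal, Gng7, Adcy5, Pde10a, Pde1b, Arpp21 and Rgs9 also belong to the striatal list. In FLX 28 were higher and 10 lower, with a median of 0.13 and 0 past limma's threshold (0.0% of all probe sets tested). Of these, 14 were higher in all 3 pairs, among them the calcineurin genes Ppp3ca, Ppp3cb and Ppp3r1. Another 4 were lower in all 3, among them Ppp1r1a at -0.76 (SE 0.48, log2). All probe sets tested gave 19.6% higher and 13.6% lower in all 3. Maob, a monoamine oxidase, gave 521.2, 510.0 and 1440 in FLX and 380.0, 407.6 and 399.7 in VEH, with a log2 difference of 0.88 (SE 0.44). FLX replicate 3 was the high array, and the groups did not overlap, as in 2.55% of all probe sets tested in that direction. Csnk1e, a casein kinase 1 gene, had 0.57 (SE 0.32), with 0.42, -0.17 and 1.45 in the 3 pairs. Without both replicate 3 arrays its log2 difference was 0.12. Leaving out FLX replicate 3 put the median of this list at -0.01, and the same step gave 0.05 for VEH replicate 1, 0.06 for VEH replicate 2 and 0.22 for VEH replicate 3.

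Replicate 3 was compared with replicates 1 and 2 within each group as a description, with no test. Ppp1r1b and Rarb differed most there, and Drd1 and Ido1 little. In Ppp1r1b replicate 3 exceeded the mean of replicates 1 and 2 by 0.96 in FLX and 1.18 in VEH (log2), or 1.95-fold and 2.26-fold. Rarb went the other way, at -0.67 in FLX and -1.96 in VEH. Drd1 set A was higher by 0.27 and 0.24, and Ido1 differed by -0.05 and -0.21. Of all 22200 probe sets tested 42.8% were higher in replicate 3 in both groups and 38.8% lower in both. The limits of 0.9 and 0.6 were chosen after the member values were seen. In both groups 7.44% were higher by 0.9 or more, as Ppp1r1b was, and 21.2% were lower by 0.6 or more, as Rarb was.

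Of the other striatal genes 14 of 29 were higher and 11 lower in replicate 3 of both groups, shares near the 42.8% and 38.8% of all probe sets tested, and 4 differed in direction between the groups. The list's median was 0.47 (FLX) and 0.59 (VEH), against 0.10 and -0.04 over all probe sets tested. Rgs9 was higher by 1.30 and 1.88, Bcl11b by 1.75 and 1.28, Pde10a by 1.16 and 0.80 and Meis2, a homeobox gene, by 1.67 and 2.11. Gnal and Gng7, which encode subunits of the G protein that couples the D1 receptor to adenylyl cyclase in striatum, were higher by 1.22 and 1.39 and by 1.40 and 1.64. Penk was lower, at -1.23 and -1.77. So was Adcy5, an adenylyl cyclase gene of this list, at -0.996 and -1.722. Eya1 was lower too, at -1.245 and -2.39, and Gpr6 at -0.981 and -1.177. The list thus did not move in 1 direction. Foxp1 gave -0.07 in FLX and 1.72 in VEH.

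Markers of other cell types moved with replicate 3 as well, and their part in the member values was not tested. Layer 6 and claustrum markers were higher in replicate 3 of both groups in 6 of 8 tested genes, among them Tle4 and Tbr1, with summed intensities of 27753 and 25560 in replicate 3 (FLX and VEH) and 9853 to 11539 on the other arrays. GABAergic interneuron markers were higher in 12 of 14 (51262 and 39553, against 24588 to 33059), and oligodendrocyte markers in 5 of 7 (66421 and 65432, against 24529 to 28275). Layer 5 pyramidal markers, a check of the labelled pyramidal cells, were tested in 11 of the 11 genes with a named probe set, and 3 were higher and 6 lower in both groups. Of the astrocyte markers 4 of 10 were higher and 5 lower, of the upper layer markers 4 of 7 were higher and 3 lower, of the microglia markers 1 of 7 was higher and 5 lower, and of the endothelial and pericyte markers 1 of 5 was higher and 4 lower. Leptomeningeal markers were lower in 8 of 8, at 3096 and 5883 against 36062 to 57580. Only tested probe sets were summed, so these sums cannot show whether a cell type was absent from an array.

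**Figure D3:**
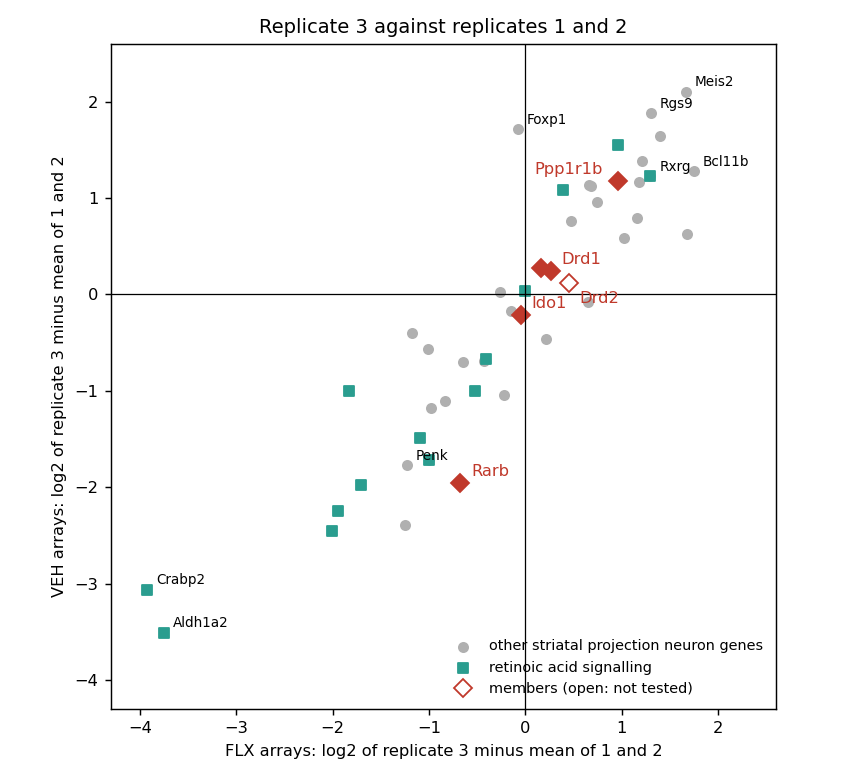
Log2 value of replicate 3 minus the mean of replicates 1 and 2 in FLX (x axis) and VEH (y axis) for the members (red diamonds, Drd2 open because it was under the minimum), the other striatal genes tested (grey circles) and the retinoic acid genes tested (green squares); Rxrg belongs to both lists. Ppp1r1b lies at 0.96 and 1.18 among striatal genes at the upper right, Drd1 and Ido1 lie nearer 0, and Drd2 lies at 0.45 and 0.12. Rarb lies at -0.67 and -1.96 with Penk, Adcy5, Eya1, Gpr6 and most retinoic acid genes at the lower left.

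Rarb was read beside the genes that make, bind and degrade retinoic acid. Of 20 genes listed 14 were tested, and 10 were lower and 4 higher in replicate 3 of both groups. Their median was -1.05 (FLX) and -1.25 (VEH). Aldh1a2, the retinaldehyde dehydrogenase that makes retinoic acid and also a leptomeningeal marker, gave 12422, 15525 and 1032 on FLX arrays 1, 2 and 3, and 17050, 15043 and 1405 on the VEH arrays. Crabp2, a cellular retinoic acid-binding protein gene, gave 6000, 7762 and 450.0 in FLX and 10086, 9054 and 1142 in VEH. In both genes the replicate 3 arrays were far below all others. Rxrg, the retinoid X receptor gene enriched in striatum, was higher in replicate 3 by 1.30 and 1.23. Between treatments 11 of the 14 were lower in FLX and 3 higher, with a median of -0.26 and 0 past limma's threshold (0.0% of all probe sets tested). Of all 22200 probe sets tested 9506 were lower. In all 3 pairs 5 of the 14 were lower and 1 was higher, against 13.6% and 19.6% of all probe sets tested. The 2 with the smallest unadjusted p by limma, Rarg at -0.68 (SE 0.60, log2) and Rxra at -0.29 (SE 0.28), were among those 5. The leptomeningeal list had a median of -0.34 between treatments, with 6 of 8 lower, and its part in the retinoic acid values was not tested. With 1 array left out this median ran from -1.47 (without VEH replicate 3) to 0.89 (without FLX replicate 3), and it was also positive without VEH replicate 1 (0.14) and without VEH replicate 2 (0.32). The median of the retinoic acid list was 0.03 without FLX replicate 3, -0.02 without VEH replicate 1, -0.11 without VEH replicate 2, -0.41 without FLX replicate 2 and -0.75 without VEH replicate 3.

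**Figure D4:**
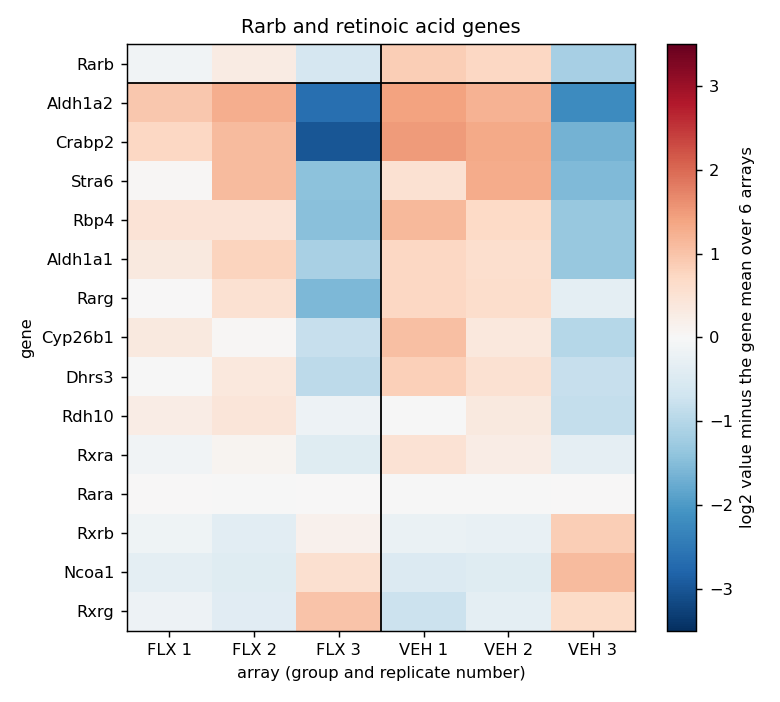
Log2 value minus the gene's mean over 6 arrays (colour, red above and blue below) for Rarb (top row) and the 14 retinoic acid genes tested, ordered by their difference in replicate 3, on the 3 FLX and 3 VEH arrays. Rarb, Aldh1a2 and Crabp2 are blue in both replicate 3 columns (Rarb at 127.7 and 86.5 in linear units), and Rxrb, Ncoa1 and Rxrg at the bottom are red there.

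Ido1 stood beside the other enzymes of tryptophan use and the interferon response genes. Of 15 tryptophan enzymes listed 4 were tested and 7 were under 50 on all arrays, among them the paralogue Ido2 and Tph1, a tryptophan hydroxylase. Of the tested ones 3 were higher and 1 lower in FLX and 0 passed limma's threshold (0.0% of all probe sets tested). Their median of 0.23 turned to -0.11 without both replicate 3 arrays and to -0.01 with no minimum. It stayed positive with 1 array left out, at 0.02 (without FLX replicate 3) to 0.35 (without FLX replicate 1). Got2, a mitochondrial aminotransferase, had 0.25 (SE 0.25) and Afmid, the formamidase that follows Ido1 in the pathway, 0.21 (SE 0.30). Of 11 interferon response genes tested 6 were higher and 5 lower in FLX, with a median of 0.12. That median turned negative without FLX replicate 1 (-0.29), FLX replicate 2 (-0.39) or VEH replicate 3 (-0.88), without both replicate 3 arrays (-0.24) and with no minimum (-0.08). In replicate 3 of both groups 9 of the 11 were lower (median -2.07 for FLX and -2.08 for VEH), while Ido1 differed there by -0.05 and -0.21.

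Genes with the most similar course over the 6 arrays were taken by Pearson's correlation of log2 values with 12212 other genes, as a description. For Drd1 they were Rab15, Ptpn20 and Fgf12 (0.969, 0.967 and 0.965), and 54 genes (0.442%) reached 0.9. For Ppp1r1b they were Zmiz2, Ggnbp2 and Tepsin (0.999, 0.999 and 0.998), and 1941 genes (15.9%) reached 0.9. For Rarb they were Ccdc8, Bach1 and Srsf3 (0.996, 0.996 and 0.995), with 1516 genes (12.4%) at 0.9 or more. For Ido1 they were Pip4p1, Sftpc and Camk1 (0.985, 0.985 and 0.978), with 25 genes (0.205%). All points of a gene come from the same 6 arrays. Zmiz2 gave 3748 and 3938.5 on FLX and VEH replicate 3, and 1634 to 1898 on the other arrays. A step at replicate 3 like that of Ppp1r1b thus enters their correlation.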

How the data were processed

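Ribosome-bound RNA was amplified in 2 rounds from 15 ng and hybridised to 1-colour Affymetrix mouse arrays, per the labels' protocols. The authors deposited linear intensities, 1 per probe set and array, made with GCRMA per the submitters' processing notes (version and settings not given in the sources used here). Of 45101 probe sets, 64 controls were left out. The annotation names 1 gene for 34945 of the rest, several for 932 and none for 9160. Probe sets with a mean of 50 or more in at least 1 group were tested (22200). The log2 values of FLX and VEH were tested with limma 3.58.1 (R 4.3.3), with no pseudocount, two-sided, and p-values were adjusted by Benjamini-Hochberg over every tested probe set, with 0.05 as the threshold. The code was tested on simulated data with equal noise on every array, with and without a shift of the replicate 3 arrays. That check does not show how large a change could be detected in these arrays. The brightest probe set stands for a gene in lists. Precision is limited by the number of arrays. In the fit without the block, differences between replicate numbers also enter the SE. The median SE of all probe sets tested was 0.314 there and 0.176 with the block. An adjusted p near 1 in that fit therefore does not show that a gene was unchanged. The labels call the arrays biological replicates and do not say what a shared replicate number means. Deviations from the group means correlated at 0.70, 0.84 and 0.87 between equal-numbered arrays, so the numbers were treated as pairs under the 0.1 limit used. FLX replicate 1 and VEH replicate 2 reached 0.64 and FLX replicate 2 with VEH replicate 1 reached 0.76, also past the limit. Pairs 1 and 2 are thus not told apart by this, and the limit gives no ground for pairing them by number. The members and gene lists were chosen with earlier results of these data known. Named genes are the members, fixed striatal and receptor genes, the 2 of a list with the smallest unadjusted p and the 3 most correlated genes; others were named after their values were seen. Alternatives were the replicate block, other minimums (none or 100), a pseudocount of 16, median centring, leaving out arrays and the mean of a gene's probe sets. Figures used matplotlib 3.10.9.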

Additional observations from a re-analysis of the deposited data

How the results depend on the processing

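The number of probe sets past limma's threshold was 0 under all 13 alternatives, as was the number of member probe sets, with a smallest adjusted p of 0.0516 in any of them, in the replicate block without both replicate 3 arrays, a fit added after seeing the data. With the replicate block alone the smallest was 0.574 over 22200 probe sets, against 0.9998 without it, and the block changed no call. It cannot change a log2 difference here, since each replicate number has an FLX and a VEH array. Both probe sets of Drd1 and Ido1 kept a positive difference throughout, at 0.12 to 0.37 (set A), 0.02 to 0.27 (set B) and 0.34 to 0.67 with 1 array left out. Ppp1r1b ran from -0.32 to 0.40 and Rarb from -0.95 to 0.07 with 1 array left out. Ppp1r1b turned negative without FLX replicate 3 (-0.32), without VEH replicate 1 (-0.25), without VEH replicate 2 (-0.13) and with median centring (-0.02). Rarb turned positive without VEH replicate 1 (0.07). The causes were not tested, and no member was past the threshold in any of these fits. Of 224 list medians under alternatives, 189 moved by less than the SD over the 3 pairs. Those under the replicate block alone could not move and are in this count. A change of sign can also lie within that SD. The median of the GABAergic interneuron markers, 0.23, was -0.21 without FLX replicate 3 and was counted as unmoved. With a minimum of 100 Ido1 was not tested, and Drd2 was tested with no minimum alone. In the fit without the block the 6 arrays leave wide intervals for Ppp1r1b (SE 0.45) and Rarb (SE 0.59). With the block these SEs were 0.16 and 0.28. Drd2 had no value of 50 or more.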
